A study of Rattus norvegicus with 5 samples.

Results

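The heat shock and DnaJ chaperone genes printed on a rat expression array were followed in Fao cells, a rat hepatoma line, over the first 60 min of insulin. Spots that were not controls were taken when their gene name, without the ending for predicted genes, began with Hspa, Hspb, Hspc, Hspd, Hspe, Hsph, Hsp90, Dnaja, Dnajb or Dnajc, or was Hsf1, Hsf2 or Bag3. This gave 57 of the 35658 genes on the array, covered by 85 probes and 103 spots. The rule reads gene names only. The 5 samples were Fao cells with 10 nM insulin for 0, 15, 30, 45 or 60 min, 1 array for each time, and the 0 min sample was the reference for all others. Every sample shared 2 days of culture with 10% fetal serum and then 16 h of starvation with 10 nM dexamethasone, a synthetic glucocorticoid, so the 0 min cells were starved and glucocorticoid-treated as well. Samples that received no insulin for the same minutes were not analysed here, so time in culture and insulin cannot be told apart.

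Chaperones bind proteins that are unfolded or only partly folded and keep them from clumping. HSP70 proteins hold and release such clients in a cycle driven by ATP, J-domain proteins of the DnaJ family deliver clients and start the ATP step, and HSP110 proteins and other exchange factors reset it. HSP90 proteins act later on signalling proteins and receptors, among them the glucocorticoid receptor, small heat shock proteins hold clients without ATP, and heat shock factor 1 raises the transcription of many of these genes when unfolded proteins build up.

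A level here is the log2 of a gene's processed signal, on its brightest probe, divided by the array's 75th percentile. A change is the level at a later time minus the level at 0 min, also in log2 units. Each array had 43379 spots that were not controls, of which 22069 to 24489 were well above background, and none was saturated. The arrays for 0, 15, 30 and 45 min shared 1 slide and lay in the order of time, and the 60 min array lay on a second slide read in a second scan, so slide and time cannot be told apart at 60 min. With 1 array per time there is no spread between samples and no test of a single time. The standard deviation of a change between replicate spots of 1 probe was 0.197, 0.191, 0.197 and 0.185 at 15, 30, 45 and 60 min, and it measures spotting and scanning only. All 10 hepatocyte markers, Alb for albumin among them, were well above background on all 5 arrays. Of the markers of other liver cells that had a value on every array, 3 of 3 of blood cells, 1 of 2 of endothelium and 1 of 3 of stellate cells were also well above background on all 5 arrays. The Kupffer cell marker Clec4f was 1.29 higher at 15 min than at 0 min, and the endothelial markers Kdr and Cdh5 had changes of -0.69 and -0.59 at 60 min. These markers were dim, with levels of -3.92, -3.19 and -2.57 at 0 min. All samples were of the Fao hepatoma line, so the markers were not read as cells of other types. Their part in the chaperone results was not tested. In bulk RNA, cell number and RNA per cell cannot be told apart.

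Most of the chaperone genes were measured. Of the 57 genes, 44 were well above background on all 5 arrays, 4 on some arrays and 9 on none. The 4 genes seen on some arrays were Hspa12a and Dnajc6 on 1 array each, Hspa1l on 3 and Hspa2 on 4. The 9 genes not well above background on any array were Hspa1b, Hspa4l, Hspa12b, Hspa5bp1, Hspb3, Hspb7, Hspb9, Dnajb13 and Dnajc5g. Hspa5bp1 is now named Tmem132a and is not an HSP70 protein, and Hspbp1 and Hspbap1, which begin with Hspb, bind other heat shock proteins and are not small heat shock proteins. The gene names are those of the array's design: Hspca is Hsp90aa1, Hspcb is Hsp90ab1 and Hspa9a is Hspa9.

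No measured change of a chaperone gene reached 2-fold in either direction at any time. For 2 genes at 60 min, Dnajc6 and Hspa12a, only a lower bound under 2-fold was measured, and 9 genes had no measured change. Bounds also stood for Hspa1l, at least 1.22-fold lower at 15 min and at least 1.34-fold lower at 30 min. Hspa2 was at least 1.14-fold lower at 45 min. A bound does not exclude a larger change. It is also not strict, since it takes the dim array's own signal where that lies above the floor. Over the processing settings the Hspa1l change at 30 min ran from -0.43 to -0.02. A change could be measured for 46 members at each of the first 3 later times and for 48 at 60 min, and 0 of them were at least 2-fold higher. Over all genes the share at least 2-fold higher was 0.972%, 1.03%, 1.33% and 2.01% at those times. Likewise 0 of the same members were at least 2-fold lower, against 1.43%, 1.16%, 1.56% and 1.85% of all genes. Read against shares this small, a count of 0 among 46 or 48 genes is near the background. Among members well above background on both arrays, the changes at 15 min ran between -0.32 and 0.68, those at 30 min between -0.23 and 0.60, those at 45 min between -0.20 and 0.60, and those at 60 min between -0.44 and 0.67. With a lower threshold of 1.5-fold, chosen after the values were seen, 1 member was higher at 15 min (Hspa4), 1 at 30 min (Hspb8), 1 at 45 min (Hspa4) and 3 at 60 min (Dnajb1 and, as bounds, Dnajc6 and Hspa12a). Of all genes, 2.41%, 2.3%, 3.1% and 6.12% were 1.5-fold higher at these times. None of the members had a measured change or bound of 1.5-fold lower, beside 2.67%, 2.78%, 3.21% and 5.08% of all genes.

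**Figure D1:**
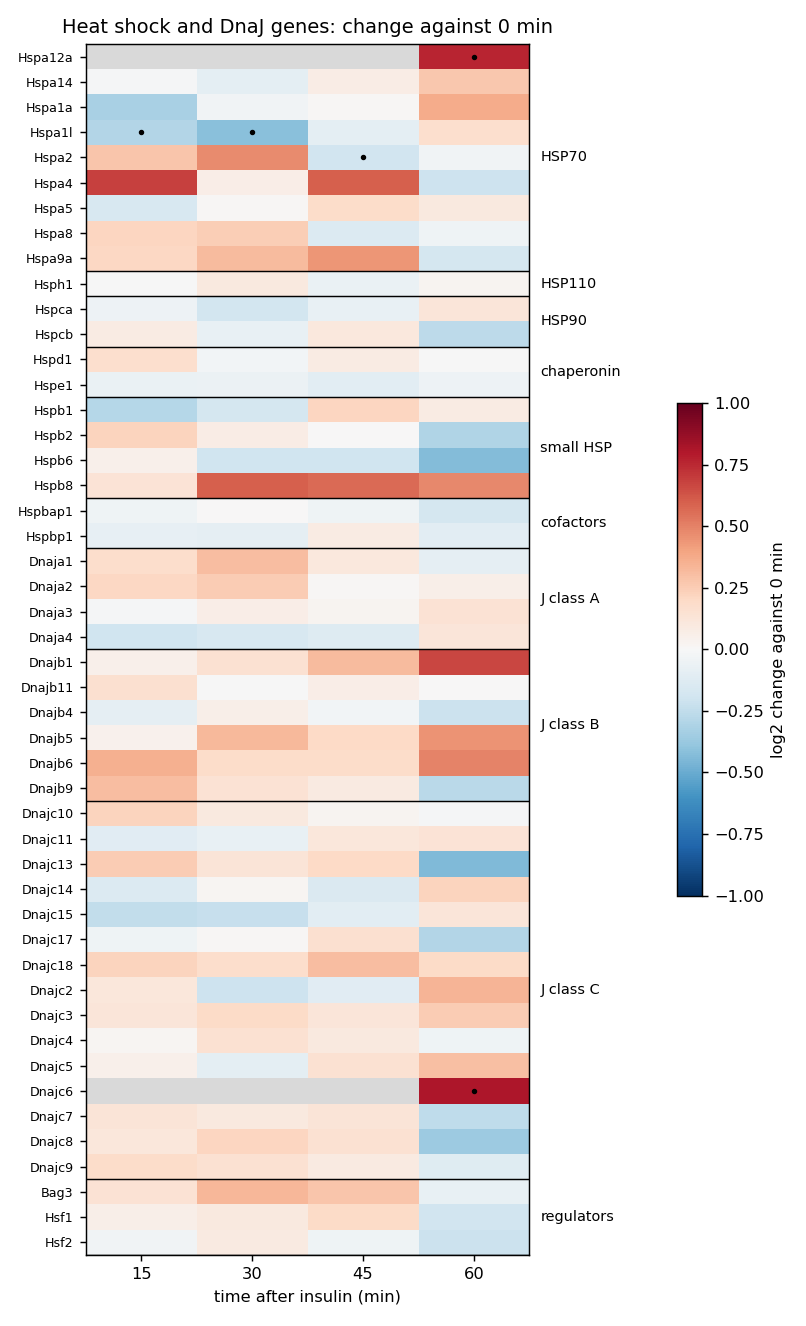
Heat map of the log2 change against 0 min for each chaperone gene measured at 1 or more times, with genes down the page by role and time across; grey cells were not measured and a black dot marks a bound. Among values measured on both arrays the largest is that of Hspa4 at 15 and 45 min, of Hspb8 at 30 min and of Dnajb1 at 60 min, the bounds of Dnajc6 and Hspa12a at 60 min are larger still, and no value or bound reaches 2-fold.

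The typical chaperone change was small at every time. The median change of the members was 0.06, 0.07 and 0.09 at 15, 30 and 45 min (n = 45 genes each) and -0.0099 at 60 min (n = 46), against medians of 0.03, 0.02, 0.02 and 0.02 for all genes on both arrays. Above the 0 min level lay 28, 30 and 32 of 45 members at the first 3 later times, then 22 of 46 at 60 min, beside 58%, 55%, 54.8% and 51.9% of all genes. From lowest to highest array, a member seen on all 5 arrays spanned a median of 0.37 (n = 44), against 0.36 for all such genes (n = 16695). A span of at least 2-fold was found for 0 of those 44 members, beside 2.62% of all genes.

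**Figure D2:**
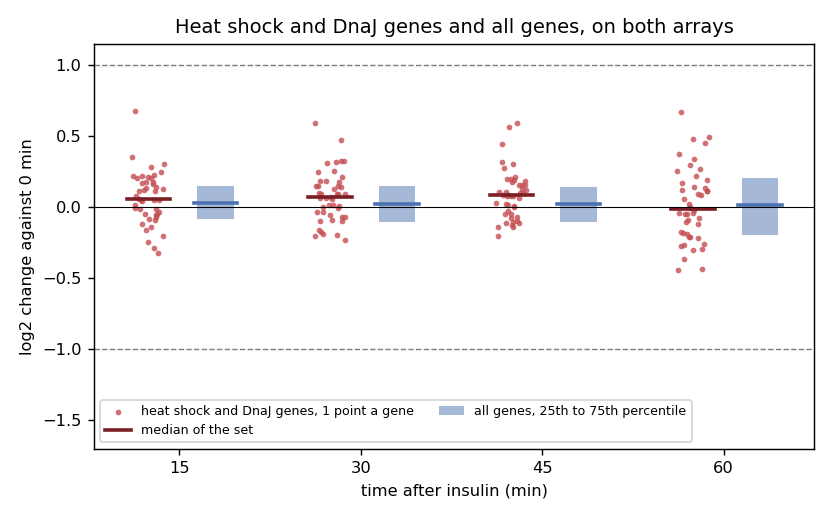
Log2 change against 0 min at each time, with 1 red point per chaperone gene to the left and a blue box for the middle 50 percent of all genes to the right; dashed lines mark 2-fold. All points lie within the dashed lines, and their middle lies close to that of all genes.

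Counted against the noise between spots, a few members stood out at each time. Changes larger than 2 of those standard deviations were seen at 15 min for Hspa4, at 30 min for Hspa2 and Hspb8, at 45 min for Hspa4, Hspa9a and Hspb8, and at 60 min for Dnajb1, Dnajb5, Dnajb6, Hspa1a and Hspb8, all of them higher than at 0 min. Lower by that measure were Dnajc13 and Hspb6 at 60 min, and none at the earlier times. As shares of the members this was 2.22%, 4.44%, 6.67% and 10.9% higher at the 4 times, beside 3.85%, 4.24%, 4.72% and 10.5% of all genes. The lower share at 60 min was 4.35% of members, beside 11.6% of all genes, and at the earlier times 0 members, beside 2.45%, 3.19% and 3.3% of all genes. At every time, 35 of the 44 members seen on all arrays (79.5%) stayed within that noise, beside 11841 of 16695 genes (70.9%). The limit is that of single spots, so it is wide for Hspa1a and Hspb1, whose values are means over 8 to 10 spots. The shares of members that were higher thus lay near the shares of all genes.

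HSP70 proteins are the central ATP-driven chaperones, and 8 of the 13 genes named Hspa could be compared at 15 min. Hspa1a, the stress-inducible HSP70, had levels of 5.11, 4.78, 5.07, 5.11 and 5.48 at 0, 15, 30, 45 and 60 min. The lowest level was at 15 min and the highest at 60 min. Its probe, at chr20:3957864-3957923 of build rn4, was spotted 10 times on each array. The spots averaged 5.48 ± 0.053 at 60 min (SD, n = 8 spots) and 5.10 ± 0.16 at 0 min (SD, n = 10 spots). Those at 60 min ran from 5.38 to 5.54 and those at 0 min from 4.84 to 5.29, so the spots did not overlap. These spots lie on single arrays of different slides and give no spread between samples. How many other probes with replicate spots also did not overlap was not counted. By the means of spots, Hspa1a was 0.38 ± 0.055 higher at 60 min and differed by -0.32 ± 0.065 at 15 min (SE over spots). A second Hspa1a probe, spotted once, gave changes of -0.46, -0.10, -0.08 and 0.16. Both Hspa1a probes were thus lowest at 15 min and highest at 60 min. Hspa1a and Hspa1b code for almost the same protein, 11611 bp apart in RefSeq's rat assembly GRCr8, and RNA of one may bind a probe of the other. The single Hspa1b probe, at chr20:3958282-3958341 of rn4, was not well above background on any array. It lies close to the Hspa1a probe on that build, and which gene each probe reads was not settled. Its low signal is thus no sign that Hspa1b RNA was absent. Hspa1l, a related gene beside Hspa1a known for its expression in testis, was 0.17 higher at 60 min and differed by -0.10 at 45 min, and had only bounds at 15 and 30 min.

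**Figure D3:**
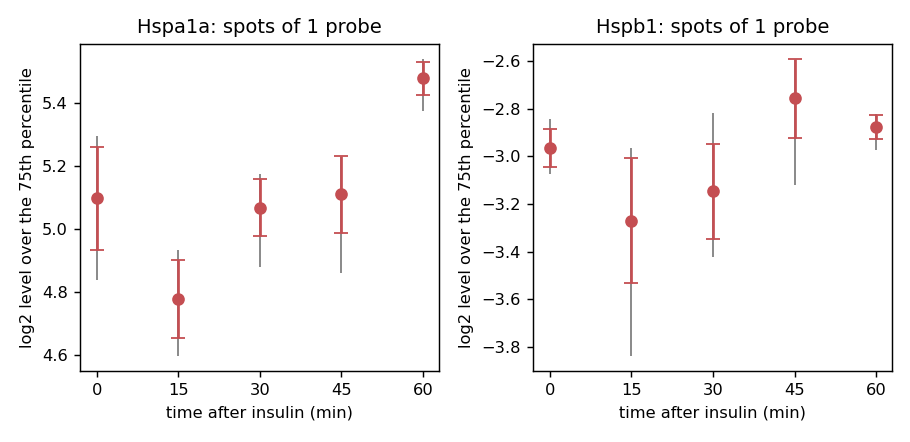
Log2 level of the replicate spots of the Hspa1a and the Hspb1 probe on each array by time in minutes; points are means over 8 to 10 spots, bars are SD and grey lines the range. The Hspa1a spots at 60 min, on the second slide, lie above all those at 0 min, and the Hspb1 spots at 15 min reach lowest.

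Hspa8, the HSP70 that cells make at all times, stayed within the noise of spots. Its levels were 6.97, 7.18, 7.21, 6.83 and 6.92 at 0, 15, 30, 45 and 60 min. The changes were 0.21, 0.25, -0.14 and -0.05, all below 2 standard deviations of a change between spots. Of its 4 probes, the other 3 gave changes between 0.05 and 0.21 at 15 and 30 min, between -0.31 and -0.10 at 45 min, and between -0.21 and 0.27 at 60 min. All 4 Hspa8 probes were thus above 0 at 15 and 30 min and below 0 at 45 min, and they split at 60 min.

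Hspa4, a relative of HSP110 that resets HSP70, had the largest change of any member at 15 min, and its probes disagreed. The brightest probe had levels of 3.37, 4.05, 3.44, 3.97 and 3.16, high at 15 and 45 min. Its changes were 0.68, 0.07, 0.60 and -0.21, which is 1.60-fold higher at 15 min. The second Hspa4 probe gave -0.52, -0.58, -0.65 and 0.08 at the same times. The probes lie at chr10:38705693-38705752 and chr10:38748920-38748979 of rn4, and at 15, 30 and 45 min they differed by 1.20, 0.65 and 1.25. Averaged over both probes, Hspa4 differed by 0.08, -0.26, -0.03 and -0.06, so no direction could be given for this gene.

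Hspa5, the HSP70 of the endoplasmic reticulum known as BiP, had levels of 6.59, 6.43, 6.60, 6.77 and 6.68. Its changes of -0.16, 0.01, 0.18 and 0.10 stayed within the noise of spots. Hspa9a, the HSP70 of mitochondria, had levels of -0.63, -0.42, -0.31, -0.18 and -0.80, with changes of 0.21, 0.32, 0.44 and -0.18. Its level was higher at each later time of the first slide and lowest on the second. Hspa2, an HSP70 known from germ cells, was dim, with changes of 0.28 and 0.47 at 15 and 30 min and -0.04 at 60 min. Hspa12a, a distant HSP70 relative, was dim, with levels of -4.47, -4.11, -3.71, -3.89 and -3.71. It was marked as well above background at 60 min only, which gives a bound of at least 1.69-fold higher there. Its level at 30 min was as high as at 60 min, and the 60 min array had the most spots well above background and the lowest floor, -5.96 against -5.41 at 0 min. The part of this in the bound was not tested. Hsph1, the stress-inducible HSP110, had levels of 2.39, 2.39, 2.49, 2.32 and 2.42 and moved by at most 0.09.

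The promoters of these genes are shown because Hspa8 and Hsph1 carry the binding letters of heat shock factor 1. Their changes lay within 2 standard deviations of a change between spots. RefSeq promoters of GRCr8, from 250 bases before to 50 after the start of each gene, were matched for 45 of the 57 members. Each is written 5′ to 3′ on the gene's strand, with the matched letters in capitals. A heat shock element was searched on both strands as 3 joined units: GAA, any 2 bases, TTC, any 2 bases, GAA, or the same with TTC first and last. Overlapping matches are shown as 1 run. The Hspa8 window is chr8:50080264-50080563 (+ strand) and the Hsph1 window chr12:10427118-10427417 (+ strand).
Hspa8: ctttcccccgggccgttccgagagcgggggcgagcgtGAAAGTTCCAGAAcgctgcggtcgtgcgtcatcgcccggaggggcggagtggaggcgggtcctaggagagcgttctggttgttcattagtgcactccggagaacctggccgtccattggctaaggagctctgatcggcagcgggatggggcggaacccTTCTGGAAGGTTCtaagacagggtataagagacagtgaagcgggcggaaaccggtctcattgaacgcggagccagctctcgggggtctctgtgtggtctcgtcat
Hsph1: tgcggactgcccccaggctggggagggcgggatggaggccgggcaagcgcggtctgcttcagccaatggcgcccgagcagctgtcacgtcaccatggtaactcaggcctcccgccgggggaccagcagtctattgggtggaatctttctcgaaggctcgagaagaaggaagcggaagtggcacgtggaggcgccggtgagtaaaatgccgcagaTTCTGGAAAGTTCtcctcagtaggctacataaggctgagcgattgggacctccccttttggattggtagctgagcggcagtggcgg

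The 3-unit element was present in 5 of the 45 member promoters (11.1%), those of Hspa8, Hsph1, Dnaja1, Hspd1 and Hspe1, and in 267 of 33469 promoters of all genes (0.798%). Its share among the members describes these genes and is no result of the arrays. In the Hspa8 promoter the elements begin at positions -213 and -55 from the start of the gene, and in the Hsph1 promoter at -36. Hspd1 and Hspe1 start beside each other on opposite strands of chromosome 9, and their windows overlap by 211 bp. They share the element at chr9:64084262-64084279 of GRCr8, a run of 18 bases in which 2 overlapping matches lie. The Hspe1 window is chr9:64084077-64084376 (+ strand). Short stretches around the element are given for Hspd1 (− strand) and for Dnaja1 on chromosome 5 (+ strand), where it lies 9 to 21 bases after the start.
Hspe1: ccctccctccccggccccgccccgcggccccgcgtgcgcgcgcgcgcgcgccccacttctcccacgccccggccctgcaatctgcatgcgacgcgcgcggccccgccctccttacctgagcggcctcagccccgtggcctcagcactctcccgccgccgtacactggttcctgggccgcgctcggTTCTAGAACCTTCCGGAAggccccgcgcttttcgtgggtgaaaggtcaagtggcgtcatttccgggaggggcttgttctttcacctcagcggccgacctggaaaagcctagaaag
Hspd1: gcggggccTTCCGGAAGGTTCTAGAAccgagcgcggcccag
Dnaja1: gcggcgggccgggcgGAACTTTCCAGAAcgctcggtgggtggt

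By their brightest probes, the 5 genes with this element had changes of -0.14 to 0.31 over all times. Other probes of Hspa8 reached -0.31 at 45 min, and another Hspd1 probe gave 0.31 at 60 min. On the brightest probes, the span of the 5 genes from lowest to highest array had a median of 0.20 (n = 5). It was 0.38 for the other 30 members with a promoter that were seen on all arrays. The difference between those medians was not tested. Hspa8 and Dnaja1 spanned 0.39 and 0.40, and Hsph1, Hspd1 and Hspe1 spanned 0.16, 0.20 and 0.11. Hspd1 and Hspe1 share 1 element, so they are not separate cases. A match names letters in the promoter and says nothing of whether the factor was bound.

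**Figure D4:**
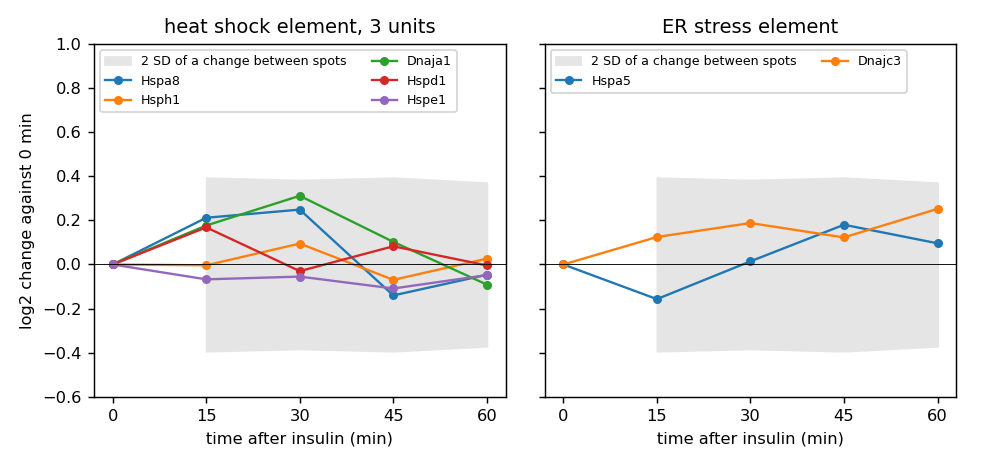
Log2 change against 0 min by time in minutes of insulin for Dnaja1, Hspa8, Hspd1, Hspe1 and Hsph1, whose promoters hold a 3-unit heat shock element, 1 line per gene; the grey band marks 2 standard deviations of a change between replicate spots. All 5 lines, drawn from the brightest probes, stay within the band, between -0.14 and 0.31.

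Hspd1 and Hspe1 form the chaperonin of mitochondria, a barrel and its lid. Hspd1 had levels of 7.54, 7.71, 7.51, 7.62 and 7.54, and Hspe1 had levels of 7.59, 7.52, 7.54, 7.48 and 7.54. All changes of Hspe1 lay between -0.11 and -0.05, and those of Hspd1 between -0.03 and 0.17 on its brightest probe. At 60 min the other Hspd1 probes gave 0.0043, 0.31 and 0.20. Over the 6 members that work in mitochondria the median change was -0.04, -0.04, 0.06 and 0.06. Among them Dnajc15, which helps to import proteins, differed by -0.24, -0.23, -0.10 and 0.12, and Dnajc11 by -0.12, -0.07, 0.11 and 0.14.

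The HSP90 genes, by their brightest probes, stayed near the 0 min level. Hspca, the inducible HSP90, had levels of 7.07, 7.02, 6.89, 7.0002 and 7.19, and changes of -0.05, -0.19, -0.07 and 0.12. At 60 min the other 3 Hspca probes gave -0.41, -0.09 and 0.30, so the 4 probes split in sign. Hspcb, the HSP90 made at all times, had levels of 7.57, 7.65, 7.50, 7.68 and 7.31, and changes of 0.08, -0.07, 0.11 and -0.26. Its second probe gave 0.06, 0.04, 0.12 and 0.13, so the Hspcb probes differed in sign at 30 and 60 min. None of these HSP90 changes on the brightest probes passed 2 standard deviations of a change between spots.

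Small heat shock proteins hold unfolded clients without ATP, and 4 of the 7 that the name rule took were well above background on all 5 arrays. Hspb8, which acts with Bag3 in clearing damaged proteins by autophagy, had levels of 2.70, 2.84, 3.30, 3.27 and 3.19. The 3 later times lay above the first pair. Its changes were 0.14, 0.60, 0.56 and 0.48, with 1.51-fold higher signal at 30 min. Only 1 probe and 1 spot stood for Hspb8, on a probe whose ends lie at chr12:41414450-41420599 of rn4. Hspb1, known as HSP25 in rodents, was dim, with levels of -2.96, -3.25, -3.13, -2.75 and -2.88. Its 10 spots gave -0.31 ± 0.087 at 15 min, -0.18 ± 0.068 at 30 min, 0.21 ± 0.059 at 45 min and 0.09 ± 0.032 at 60 min (SE over spots). Hspb6, known from muscle, had levels of -1.40, -1.35, -1.60, -1.60 and -1.83, with changes of 0.05, -0.20, -0.20 and -0.43. The cofactors Hspbp1, which releases nucleotide from HSP70, and Hspbap1 moved by at most 0.18 in either direction.

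Among members measured on both arrays, class B J-domain proteins held the largest values at 60 min, those of Dnajb1 and Dnajb6. Dnajb1, the stress-inducible HSP40 that works with HSP70, had levels of 2.27, 2.31, 2.42, 2.58 and 2.94, each later time above the one before. Its changes were 0.05, 0.15, 0.32 and 0.67, which made it 1.59-fold higher at 60 min, the largest change of a member measured on both arrays at that time. A second Dnajb1 probe gave -0.40, -0.07, -0.04 and 0.22. Both Dnajb1 probes were highest at 60 min, and the second was lowest at 15 min. Dnajb5 had levels of -1.48, -1.44, -1.16, -1.29 and -1.03, and changes of 0.05, 0.32, 0.20 and 0.45. Its second probe gave 0.01, 0.25, 0.23 and 0.39, so the 2 Dnajb5 probes moved alike. Dnajb6, known for holding back protein clumping, had levels of 1.85, 2.20, 2.04, 2.03 and 2.35. Its brightest probe gave changes of 0.35, 0.19, 0.18 and 0.50 and its second -0.17, -0.10, -0.02 and -0.02. The Dnajb6 probes differed by 0.52 at 15 min and again at 60 min. Dnajb4 stayed between -0.21 and 0.06, and Dnajb9, a J protein of the endoplasmic reticulum, had changes of 0.31, 0.14, 0.09 and -0.27. The second Dnajb9 probe gave 0.19, 0.28, -0.08 and -0.41, of which the last passed 2 standard deviations of a change between spots.

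**Figure D5:**
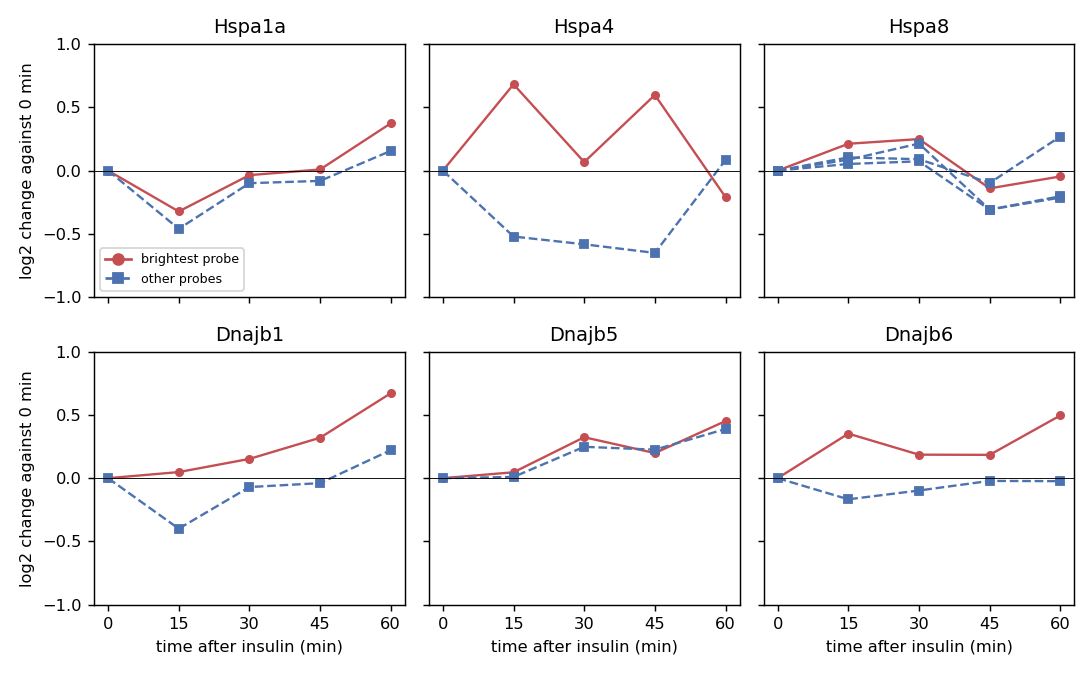
Log2 change against 0 min by time in minutes for each probe of Hspa1a, Hspa4, Hspa8, Dnajb1, Dnajb5 and Dnajb6, the brightest in solid red and others in dashed blue. The probes of Dnajb5 run together, those of Hspa1a and Dnajb1 share the order of the later times with an offset, and those of Hspa4 run in opposite directions.

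The Dnajb1 promoter held no 3-unit match, and is shown for its 2-unit ones. The 2-unit letters GAANNTTC were found in 14 of 45 member promoters (31.1%) and in 8.59% of all promoters, and every 3-unit match contains them. They are shown for Dnajb1 in chr19:41431092-41431391 of GRCr8 (− strand), with matches beginning at positions -11 and 17 from the start, and for a short stretch of Hspb8 on chromosome 12 (+ strand), at -23. Among members measured on both arrays, Hspb8 had the highest change at 30 min and Dnajb1 the highest at 60 min, which is why these are shown. By their brightest probes the other carriers of these letters were mixed at 60 min. For example, Dnajb6, Dnajc18 and Hspb1 had changes of 0.50, 0.19 and 0.09, and Hspb6, Hspa9a and Bag3 had -0.43, -0.18 and -0.08. Whether the letters bear on these changes was not tested.
Dnajb1: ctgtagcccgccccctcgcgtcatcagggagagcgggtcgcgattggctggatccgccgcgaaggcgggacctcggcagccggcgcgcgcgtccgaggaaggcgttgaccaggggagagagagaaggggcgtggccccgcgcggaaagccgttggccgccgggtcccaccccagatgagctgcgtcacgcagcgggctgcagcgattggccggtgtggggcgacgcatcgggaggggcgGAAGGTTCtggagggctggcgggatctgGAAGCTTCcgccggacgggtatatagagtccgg
Hspb8: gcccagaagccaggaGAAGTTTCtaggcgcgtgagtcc

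Class A J proteins, close relatives of bacterial DnaJ, were all within noise. Dnaja1, a J protein of the cytosol, had levels of 5.60, 5.77, 5.91, 5.70 and 5.50, and changes of 0.18, 0.31, 0.10 and -0.09. Dnaja2 had changes of 0.20, 0.26, 0.02 and 0.06, and Dnaja4 had changes of -0.20, -0.16, -0.13 and 0.12. Of the 16 class C genes, a mixed group that shares only the J domain, 14 were compared at 15 min. Dnajc13, which acts on endosomes, had levels of 0.13, 0.39, 0.26, 0.33 and -0.31, with changes of 0.25, 0.13, 0.20 and -0.44. Dnajc8, of the spliceosome, differed by -0.36 at 60 min on its brightest probe and by 0.34 on its second. Dnajc2, which binds ribosomes, had changes of 0.11, -0.21, -0.11 and 0.34. Dnajc14 stayed between -0.14 and 0.22, and Dnajc18 between 0.18 and 0.31 at all times. Dnajc6, auxilin, which strips clathrin from vesicles, was marked as well above background at 60 min only, on 1 of its 4 probes, which gives a bound of at least 1.75-fold higher.

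Chaperones of the endoplasmic reticulum were close to the 0 min level by their brightest probes. Dnajc3, which binds unfolded proteins in its lumen, had levels of 2.38, 2.50, 2.57, 2.50 and 2.63, with changes of 0.12, 0.19, 0.12 and 0.25. Over the 5 members on this list the median change was 0.16, 0.10, 0.09 and 0.0049, and the text above gives the values of Hspa5 and Dnajb9. The element through which unfolded proteins in this compartment raise transcription, searched on both strands as CCAAT, any 9 bases and CCACG, was found in 2 of 45 member promoters (4.44%), those of Hspa5 and Dnajc3, and in 22 of 33469 promoters (0.0657%). Hspa5 lies in chr3:38452766-38453065 of GRCr8 (+ strand), and a short stretch is shown for Dnajc3 on chromosome 15 (+ strand).
Hspa5: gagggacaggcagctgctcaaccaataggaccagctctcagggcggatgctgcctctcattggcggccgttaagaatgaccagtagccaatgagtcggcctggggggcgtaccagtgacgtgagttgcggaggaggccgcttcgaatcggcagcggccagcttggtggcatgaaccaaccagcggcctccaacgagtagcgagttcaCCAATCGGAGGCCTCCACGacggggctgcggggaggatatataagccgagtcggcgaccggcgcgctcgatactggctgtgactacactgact
Dnajc3: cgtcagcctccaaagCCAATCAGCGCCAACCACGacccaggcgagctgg

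The regulators of the group stayed near the 0 min level. Hsf1, heat shock factor 1, had levels of 2.88, 2.94, 2.98, 3.07 and 2.69, and changes of 0.06, 0.10, 0.19 and -0.19. Hsf2, a related factor, had levels of 1.78, 1.74, 1.87, 1.73 and 1.57, and changes of -0.04, 0.09, -0.05 and -0.21. Bag3, which links HSP70 to small heat shock proteins, had levels of 5.08, 5.22, 5.41, 5.36 and 4.9997, and changes of 0.14, 0.33, 0.28 and -0.08. All 3 were above the 0 min level at 30 min and below it at 60 min, within the noise between spots. Across the 15 members on a list of genes that heat shock factor 1 can drive, some of them also made without stress, of which 12 or 13 were compared at each time, the median change was 0.06, 0.03, 0.08 and 0.03, with 7 of 12, 6 of 12, 8 of 13 and 7 of 13 above 0.

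Partners of these chaperones that the name rule left out were read from a list of 43 genes. Of these, 34 were on the array, 32 had a value on every array and 31 were compared at every time. No measured change reached 2-fold, and their median change was 0.0030, 0.02, 0.02 and 0.12. At 60 min 21 of the 31 lay above the 0 min level, beside the 51.9% of all genes given above. Bag5, an exchange factor for HSP70, had levels of 0.98, 1.05, 1.19, 1.27 and 1.51, and changes of 0.07, 0.21, 0.29 and 0.53. Ahsa2, a gene of the family that activates HSP90, had changes of 0.40, 0.16, 0.33 and 0.38. At the other end at 60 min, and named after the values were seen, Trap1, the HSP90 of mitochondria, differed by -0.45, and Unc45a, a partner of HSP90, by -0.37. Cryab, a small heat shock protein whose name lies outside the rule, had changes of -0.02, 0.22, 0.22 and 0.15.

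A slope over the 5 times was the 1 test the design allowed. In limma's moderated fit on time in minutes, 0 of 48 members and 0 of 20449 genes had a slope at a Benjamini-Hochberg adjusted p below 0.05. At an unadjusted p below 0.05, 4 members had a slope above 0 (Dnajb1, Hspa12a, Dnajb5 and Hspb8) and 1 below 0 (Hspb6), beside 4.99% and 3.55% of all genes. As a share this was 10.4% of the members, against 8.54% of all genes fitted. Hspa12a entered the fit through the 60 min array alone, and among the 44 members seen on all 5 arrays 3 had a slope above 0 and 1 below 0 at that p. The smallest p among the members was that of Dnajb1, with a slope of 0.65 ± 0.16 per 60 min (SE) and an adjusted p of 0.465 in limma. Hspb6 had a slope of -0.45 ± 0.15 and an adjusted p of 0.543. On these 5 arrays no chaperone gene had a slope that passed the test.

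Probes of the same gene give a second look at the noise. For the 14 members with 2 probes well above background on all arrays, the changes of the 2 brightest probes differed by a median of 0.15, 0.16, 0.11 and 0.26 at 15, 30, 45 and 60 min, against 0.13, 0.15, 0.14 and 0.22 for the 2522 such genes of the array. The 2 probes had the same sign in 9, 9, 8 and 7 of the 14 members, beside 61.3%, 58.8%, 59.4% and 58.2% of all genes. By over 0.5 the probes differed in 2, 1, 1 and 3 of the 14 members (14.3%, 7.14%, 7.14% and 21.4%), beside 3.01%, 4.24%, 4.32% and 15.6% of all genes.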

How the data were processed

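RNA of Fao cells at 5 times was labelled with Cy3 and hybridised to rat arrays of 1 colour. Per the file headers, Agilent Feature Extraction 9.5.3.1 read the spots and wrote a processed intensity, background-subtracted and detrended, on array design 014879 with probe positions on rn4, where exons were not assigned. The deposited series matrix holds log2 values for 19746 probes that are not controls, all of them well above background on all 5 arrays. The matrix columns have a median of 0 and follow the scanner values centred per probe, and how the submitters made them is not stated. The matrix served as an alternative only.

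From the deposited intensity, controls and spots marked as outliers (100 to 163 on an array) were dropped, spots of a probe were averaged, divided by the 75th percentile of the array, floored at the lowest signal well above background and put on a log2 scale. A gene is its brightest probe by mean signal. A change is a bound where 1 of the 2 arrays is not well above background: the brighter level over the higher of the dim array's floor and its own signal. Such a bound is written "at least N-fold", and where the dim array's own signal was used a smaller change is not excluded. Changes were called at 2-fold, without a test. Slopes on time were fitted for all genes with limma 3.58.1 in R 4.3.3, with 3 residual degrees of freedom and Benjamini-Hochberg adjustment, after a check on simulated data. Groups follow the labelled time, the labels name no separate cultures, and precision is limited by having 5 arrays.

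Names were updated through RefSeq GRCr8, with 40 members matched by accession, 16 by symbol and 1 by synonym. The members, the lists and the rule for named genes were chosen with earlier results of these data known. Named were a fixed set of well-known chaperones whatever their values, the largest changes at each time, the smallest slope p-values, members whose probes differed by over 0.5, and up to 3 members per role and list by mean absolute change. Alternatives covered background correction, scaling, the filter on dim probes, the mean over probes, the series matrix, the 15 min array as the baseline, log time, and leaving out each array.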

Additional observations from a re-analysis of the deposited data

How the results depend on the processing

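Of 240 counts, medians and slope results recomputed under an alternative, 232 stayed within their limits. For a median or a single gene the limit was a move below the standard deviation of a change between spots, 0.185 to 0.197. That exceeds the medians themselves, so a median could change sign and still count as unmoved. Counts had to be equal or within 1.5-fold, and slope results had to stay at 0. The 2-fold counts were all 0 to begin with, so the 232 is a weak check. With normexp background correction, 2 members were 2-fold higher and 1 was 2-fold lower at 15 min. The members' median was then -0.43 and the partners' median -0.68, beside -0.03 for all genes. With the 5 spots of the 15 min array whose local background lay far above the spot left out of that fit, an alternative chosen after seeing the data, both counts were 0 and the members' median was 0.06. With 1.5-fold in place of 2-fold, also chosen after seeing the data, 1, 1, 1 and 3 members were higher at 15, 30, 45 and 60 min (Hspa4, Hspb8, Hspa4, and Dnajb1 with the bounds of Dnajc6 and Hspa12a), and none was lower. No member had a slope past the threshold in limma under any alternative, with a lowest adjusted p of 0.271 to 0.766 and 0 to 5 members at an unadjusted p below 0.05. Without the 60 min array, which leaves 1 slide, 4 members were at an unadjusted p below 0.05, the lowest being Hspa9a. The matching shares of all genes are not given for these slopes or for the normexp counts, so neither can be read against a background. Of 1324 values of single genes, 1217 stayed within their limits and 107 moved. Of those that moved, 41 were under normexp, 10 under its refit, 9 under the mean over probes and 47 with the 15 min array as the baseline. None of these genes was called at 2-fold in the results above, so there was no call that an alternative could reverse. Signs of smaller changes did differ between settings. For example, at 15 min Bag3 went from 0.14 to -0.56 under normexp, and Dnaja1 from 0.18 to -0.52. With no filter on dim probes the median of all genes was 0.16, 0.23, 0.18 and -0.26 at the 4 times, since the floors of the arrays differ, so the counts above are relative to detected probes. Where a value moved, the cause was not tested except for the spots named here. No paired analysis was possible because the labels give no replicate numbers and each time has 1 array. Signal over background limits the 13 members that were not well above background on every array.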

Other observations

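Some chaperones carry older names on the array and so fell outside the rule. Tra1, the HSP90 of the endoplasmic reticulum now named Hsp90b1, had changes of -0.07, -0.06, -0.07 and 0.30 at 15, 30, 45 and 60 min. Stch, now Hspa13, an HSP70 of the microsomes, had changes of 0.29, 0.33, 0.27 and -0.03. The J proteins now named Dnajb12 and Dnajc22 differed by 0.47 and 0.37 at 60 min, and at the earlier times by 0.19 to 0.24 for Dnajb12 and 0.01 to 0.06 for Dnajc22. Those now named Dnajc16 and Dnajc27 were not well above background on any array. No measured change of these genes reached 2-fold. They were looked up after the rule had been applied and were not tested.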
